A study of Mus musculus with 4 samples.

Results

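Interferon-stimulated genes and their regulators were described in 4 subcutaneous tumors, 2 that expressed EGFP and 2 that expressed p62-EGFP. The list names 37 genes, and a gene was measured if it had a probe set annotated to that gene alone. Of the 37, 32 were measured, among 12393 genes measured on the array: 5 regulators, 21 effectors that type I interferon induces and 6 GTPases that interferon gamma induces. Each was represented by its probe set of highest mean signal. Isg15 and Tgtp1 had only probe sets shared with another gene, and Ddx58, Ifi44 and Xaf1 had no probe set annotated to them. All 4 tumors grew from immortalized baby mouse kidney epithelial (iBMK) cells that were ATG5-/- and carried Bcl-2, in nude (NCR Nu/Nu) mice, and no treatment was given. The control cells expressed EGFP, a green fluorescent protein, and the others the same protein joined to p62, an adaptor that autophagy removes, so the loss of Atg5 was common to both groups. Nude mice lack a thymus and most mature T cells but keep NK cells, B cells and macrophages. The labels do not give the promoter of either construct, the number of cell clones, the age or sex of the mice, or whether each tumor grew in a mouse of its own. The p-values then reflect no more than how these 4 tumors vary, which may be technical.

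Interferons are secreted proteins that warn cells of infection. Type I interferons (the interferon alpha family and interferon beta) act through the receptor of IFNAR1 and IFNAR2 and the kinases JAK1 and TYK2, which activate ISGF3, a transcription factor complex that contains STAT2 and IRF9 and binds the interferon-stimulated response element. Interferon gamma, made mainly by NK and T cells, acts through IFNGR1 and IFNGR2 and the kinases JAK1 and JAK2, and the STAT protein it activates binds the gamma-activated site. The targets of both overlap widely, but the immunity-related GTPases and guanylate-binding proteins respond most strongly to interferon gamma, while the IFIT, OAS and Mx antiviral proteins are classical targets of type I interferon.

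The promoters of some of these genes carry the letters of both elements, and 7 are printed here as examples. Sequences are those of RefSeq on GRCm38.p6, each the 160 bases before the annotated start, 5′ to 3′ on the gene's strand. Capitals mark matches, on either strand, to GAAANNGAA, the core of the interferon-stimulated response element, or to TTCNNNGAA, the gamma-activated site.

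Irf1 (chr11:53769854-53770013, plus strand): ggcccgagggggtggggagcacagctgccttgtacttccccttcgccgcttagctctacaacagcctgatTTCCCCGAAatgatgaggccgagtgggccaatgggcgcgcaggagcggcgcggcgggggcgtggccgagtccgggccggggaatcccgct

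Ifit1 (chr19:34640729-34640888, plus strand): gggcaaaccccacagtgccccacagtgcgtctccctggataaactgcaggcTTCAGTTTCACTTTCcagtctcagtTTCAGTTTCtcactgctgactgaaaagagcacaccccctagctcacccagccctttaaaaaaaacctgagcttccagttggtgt

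Ifit3 (chr19:34583369-34583528, plus strand): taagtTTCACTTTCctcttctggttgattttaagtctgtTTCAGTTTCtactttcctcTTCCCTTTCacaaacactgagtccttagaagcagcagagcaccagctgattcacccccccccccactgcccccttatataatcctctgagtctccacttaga

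Rsad2 (chr12:26456453-26456612, minus strand): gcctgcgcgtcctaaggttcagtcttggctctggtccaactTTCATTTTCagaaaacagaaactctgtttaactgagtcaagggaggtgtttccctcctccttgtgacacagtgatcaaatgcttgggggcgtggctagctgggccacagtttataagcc

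Gbp2 (chr3:142620503-142620662, plus strand): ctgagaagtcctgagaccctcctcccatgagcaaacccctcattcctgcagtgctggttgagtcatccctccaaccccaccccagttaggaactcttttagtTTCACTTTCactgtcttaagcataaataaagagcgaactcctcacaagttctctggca

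Igtp (chr11:58199396-58199555, plus strand): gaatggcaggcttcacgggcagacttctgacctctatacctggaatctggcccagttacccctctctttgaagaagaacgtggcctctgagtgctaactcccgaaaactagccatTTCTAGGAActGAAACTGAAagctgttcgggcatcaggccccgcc

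Irgm1 (chr11:48871421-48871580, minus strand): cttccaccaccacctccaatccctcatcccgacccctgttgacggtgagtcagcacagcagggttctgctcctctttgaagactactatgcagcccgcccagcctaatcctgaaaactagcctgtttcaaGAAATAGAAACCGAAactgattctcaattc

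The window of Irf1 held only the gamma-activated site, beginning 90 bases before the start. That of Igtp held both, the gamma-activated site 45 bases and the response element core 34 bases before the start. Ifit1 and Ifit3 had 3 matches each to the core, with overlapping copies in Ifit1 that began 109 and 103 bases before the start, while Irgm1 had overlapping copies at 30 and 24 bases. Rsad2 and Gbp2 had 1 each. The type I effectors Oas1a and Bst2, not printed, held both motifs in their 160 bases, so neither motif was confined to 1 class. Of the 37 listed genes, 30 had a promoter window of 300 bases (250 before the start and 50 after it), and 19 of the 30 (63.3%) held GAAANNGAA, against 9.76% of 27025 genes with a window and 8.56% of all windows. By class it was found in 1 of 4 regulators, 13 of 20 type I effectors and 5 of 6 GTPases. TTCNNNGAA was found in 11 of 30 (36.7%), against 9.55% of all genes and 8.3% of windows, and by class in 1 of 4, 8 of 20 and 2 of 6. Matches to the 2 motifs shared bases in 2 genes, Bst2 and Ifitm3. A match describes letters in this window and not a bound site.

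Signals were MAS5 values on a linear scale with equal trimmed means, and log2 values and folds below were computed on signal + 16, which understates changes of dim probe sets. Sqstm1, which encodes p62, read 976 and 1156 in EGFP tumors 1 and 2, against 1433 and 1688 in p62-EGFP tumors 1 and 2 (log2 difference 0.54, limma adjusted p = 0.235), and whether its probe set detects the construct is not known. Atg5 read 119, 103, 91.3 and 93.9 in the same order, and Bcl2 5.4, 15.2, 5.6 and 2.4. The sources used here do not place the Atg5 probes relative to the deletion, so its signal checks nothing. Of 8 epithelial markers 6 were bright enough to be tested, among them Krt8 at 137, 80.5, 101 and 239. The dim ones were Krt7, between 5.3 and 8.2, and Cldn7, between 0.5 and 23.4. EGFP tumor 2 stood apart from the other 3: the arrays of the EGFP tumors correlated at r = 0.901 across tested probe sets and those of the p62-EGFP tumors at r = 0.980. EGFP tumor 1 correlated with the p62-EGFP tumors at 0.944 and 0.946, and EGFP tumor 2 at 0.893 and 0.902. Comparisons are therefore given with and without EGFP tumor 2. The test took probe sets whose mean log2 value reached the 40th percentile (5.605), a level that 31 of the 32 measured genes reached and Mx2 did not. Dhx58 and Mx1 passed only through their level in EGFP tumor 2.

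**Figure D1:**
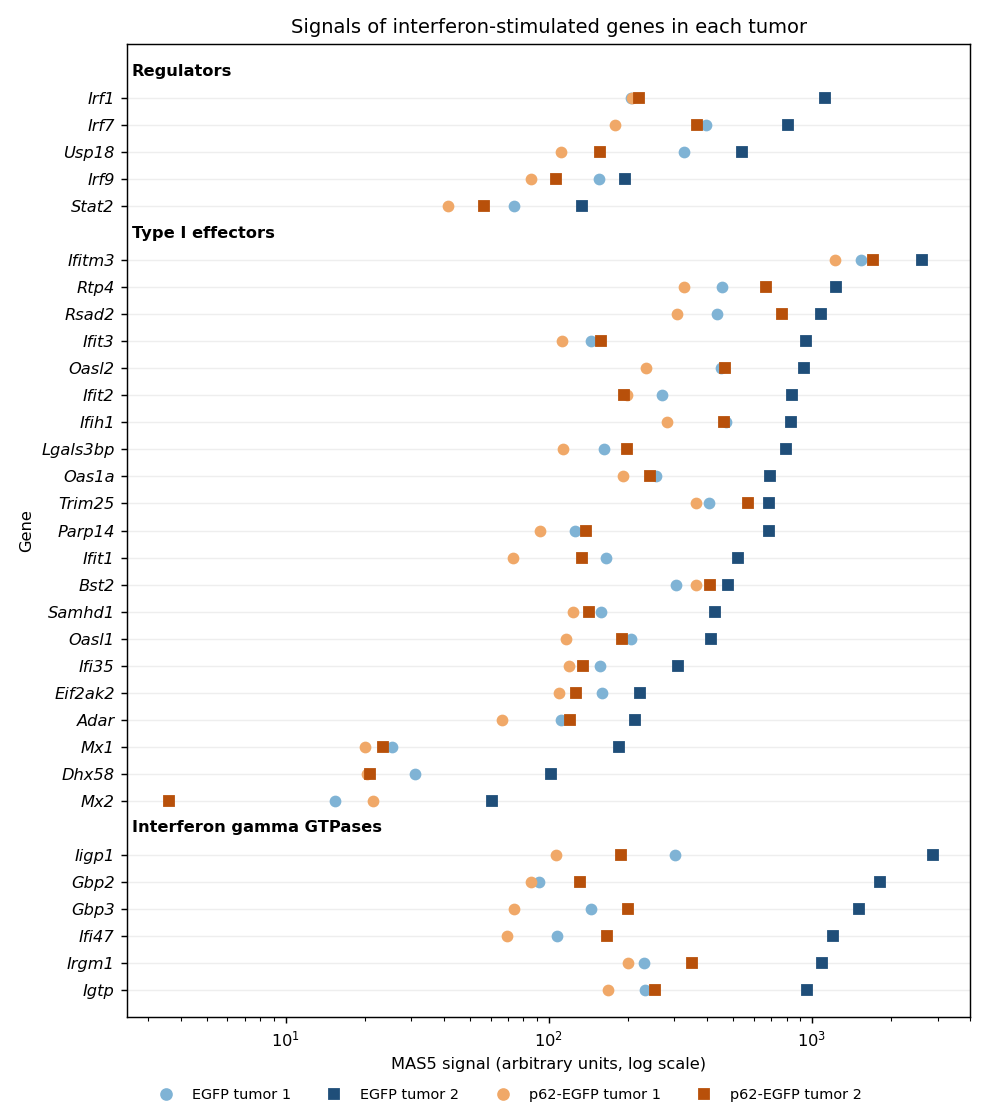
Each row is a measured gene, and each point its MAS5 signal in 1 tumor on a log scale, with EGFP tumors in blue and p62-EGFP tumors in orange. EGFP tumor 2 (dark squares) lies to the right of the other 3 tumors for all 32 genes, and the gap is widest for the GTPases Gbp2 and Iigp1.

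All 32 measured genes had their highest signal in EGFP tumor 2, as 24.6% of the 7846 genes tested did. Of the 31 tested genes, 17 stood at least 2-fold above each of the other 3 tumors there, where 3.48% of all genes tested did so. The 17 were 2 of 5 regulators, 9 of 20 type I effectors and 6 of 6 GTPases, and they include Dhx58 and Mx1, which the filter kept only through that tumor. The lowest signal was usually in p62-EGFP tumor 1, for 28 of 31 against 21.5% of all genes tested.

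Among the regulators, Irf1, a transcription factor induced by interferon gamma, read 206 and 1122.5 in EGFP tumors 1 and 2, against 208 and 220 in the p62-EGFP tumors. The 3 tumors other than EGFP tumor 2 were nearly equal, and EGFP tumor 2 was 4.82-fold above the next highest. Irf7, which amplifies type I interferon production, read 394 and 807 against 178 and 366. Here p62-EGFP tumor 2 lay close to EGFP tumor 1, and p62-EGFP tumor 1 lay below both. Usp18, which removes ISG15 from proteins and damps signalling at the type I receptor, read 327 and 544 against 111 and 156. Stat2, a subunit of ISGF3, read 73.6 and 134 against 41.2 and 56.8, and its partner Irf9 154 and 195 against 85.1 and 106.5. For Usp18, Irf7, Stat2 and Irf9 the groups did not overlap, with both p62-EGFP tumors below both EGFP tumors. The same held for 22.1% of all genes tested.

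The type I effectors with the widest separation of EGFP tumor 2 from EGFP tumor 1 were Ifit3, Parp14, Mx1 and Lgals3bp. Ifit3, which binds viral RNA together with Ifit1, read 145 and 949 in the EGFP tumors against 112 and 157 in the p62-EGFP tumors, a ratio of 6.01 between EGFP tumors. Parp14, an ADP-ribosyltransferase, read 126 and 686 against 92.8 and 139. Mx1, a dynamin-like antiviral GTPase, read 25.4 and 185 against 20 and 23.5. All of them had 3 tumors close together and 1 far above. Lgals3bp, a secreted galectin-3-binding glycoprotein, read 162 and 793 against 113 and 199.

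The other IFIT and OAS genes differed less between the EGFP tumors. Ifit1 read 165 and 522 in the EGFP tumors against 72.7 and 134 in the p62-EGFP tumors, and Ifit2 269 and 842 against 198 and 193. Both had p62-EGFP tumors below both EGFP tumors, as 22.1% of all genes tested did. Oas1a, which makes the second messenger that activates RNase L, read 255 and 692 against 192 and 242, without overlap. The related Oasl1 read 206 and 415 against 116 and 190, and Oasl2 449 and 929 against 233 and 465.5. Oasl1 did not overlap between groups, whereas p62-EGFP tumor 2 slightly exceeded EGFP tumor 1 for Oasl2. IFIT, OAS and guanylate-binding protein genes belong to families of related sequence, and their probe sets can share signal.

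Sensors of viral RNA followed the same order. Ifih1, which encodes MDA5, read 469 and 833 against 281 and 462, and Dhx58, which encodes the related LGP2, 31.1 and 102 against 20.4 and 20.9. Eif2ak2, the double-stranded RNA kinase PKR, read 160 and 222 against 110 and 127. In all of these the p62-EGFP pair lay below the EGFP pair (22.1% of all genes tested), by a small margin for Ifih1. Samhd1, which depletes deoxynucleotides, read 157 and 427 against 124 and 142.5, and Ifi35, a cytosolic interferon-induced protein, 156 and 309 against 119 and 135.

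In a further set, p62-EGFP tumor 2 reached or passed EGFP tumor 1. Rsad2, the antiviral enzyme viperin, read 434 and 1084 in the EGFP tumors against 306 and 770 in the p62-EGFP tumors, and Rtp4, a chaperone of receptor transport, 455 and 1238 against 327 and 670. Trim25, the ubiquitin ligase that acts on RIG-I, read 407 and 686 against 363 and 570, and Adar, an RNA-editing adenosine deaminase, 111 and 212 against 66.2 and 120. The groups overlapped for each of these, since p62-EGFP tumor 2 lay above EGFP tumor 1. Ifitm3, which blocks viral entry from endosomes, read 1530 and 2615 against 1225 and 1706. Bst2, the tether of budding virus known as tetherin, was the only tested gene of the list without a lower mean log2 value in the p62-EGFP tumors, at 303 and 481 against 363 and 408. Mx2, which was too dim to be tested, read 15.4 and 60.9 against 21.4 and 3.6.

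The GTPases that interferon gamma induces separated EGFP tumor 2 most widely. Gbp2, a guanylate-binding protein that attacks vacuoles of intracellular microbes, read 91.5 and 1815 in the EGFP tumors against 85.1 and 131 in the p62-EGFP tumors, and its relative Gbp3 144 and 1502 against 73.8 and 200.3. EGFP tumor 2 was 12.5-fold and 7.02-fold above the next highest tumor, p62-EGFP tumor 2 in both cases. The immunity-related GTPases disrupt pathogen vacuoles or regulate that process. Iigp1 read 301 and 2886 against 106 and 188, Ifi47 108 and 1203 against 69.1 and 166.5, and the regulatory members Igtp and Irgm1 231 and 961 against 168 and 252, and 229 and 1087 against 200.3 and 348.5. Of the 6, only Iigp1 had both p62-EGFP tumors below both EGFP tumors (22.1% of all genes tested).

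The 2 classes were then compared within each tumor by the log2 difference of each gene from its own level in EGFP tumor 1. In EGFP tumor 2 the median of the 6 GTPases was 3.22 (9.31-fold, range 3.96-fold to 17.0-fold) and that of the 20 tested type I effectors 1.31 (2.48-fold, range 1.35-fold to 6.01-fold), while the median fold of all genes tested was 0.947. The medians differed by 1.91, so that the GTPases stood 3.76-fold further above EGFP tumor 1 than the type I effectors did. None of the 20 type I effectors exceeded the GTPase median, and 4 (Ifit3, Parp14, Mx1 and Lgals3bp) exceeded Igtp, the lowest GTPase. The 5 regulators had a median of 0.74, with Irf1 the highest at 2.36 and Irf9 the lowest at 0.31. These are differences between 2 single tumors and have no replicate check.

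In p62-EGFP tumor 1 the classes did not separate in this way: the medians relative to EGFP tumor 1 were -0.48 for the GTPases and -0.40 for the type I effectors, and 29 of the 31 genes were below EGFP tumor 1. In p62-EGFP tumor 2 the medians were 0.44 and 0.01, with 1 of 6 GTPases and 10 of 20 type I effectors below EGFP tumor 1. The regulators were lower in both, at medians of -0.75 and -0.30. All 3 sets of differences share EGFP tumor 1.

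**Figure D2:**
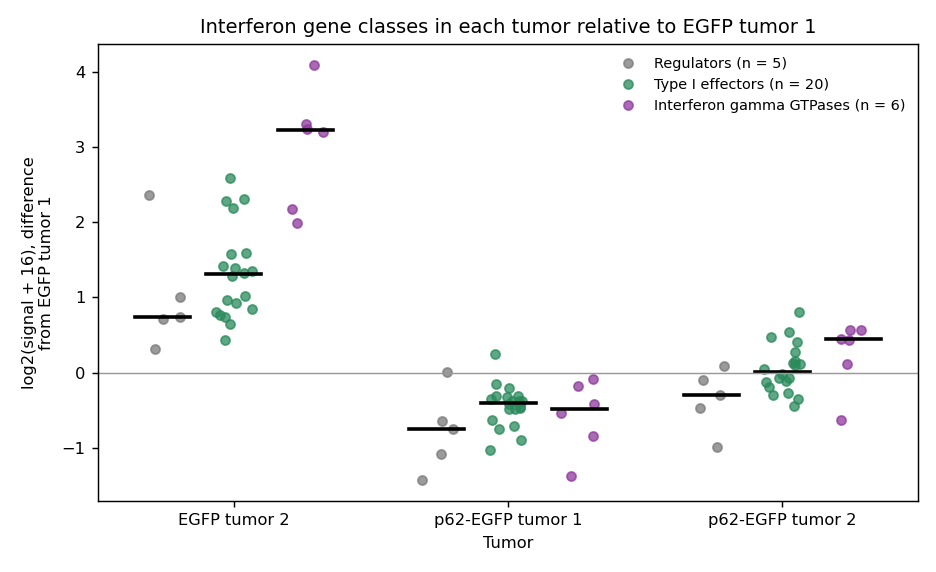
Each point is a tested gene, and its height the difference of its log2(signal + 16) from EGFP tumor 1 in the tumor named on the horizontal axis; black bars are class medians. The GTPases (purple) have a median of 3.22 in EGFP tumor 2 against 1.31 for the type I effectors (green), while medians in the p62-EGFP tumors lie between -0.75 and 0.44.

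The p62-EGFP tumors also differed from each other. Of the 31 tested genes, 30 were higher in p62-EGFP tumor 2 than in p62-EGFP tumor 1, and 14 by at least 1.5-fold, where 1.78% of all genes tested were. The exception was Ifit2. The median ratio was 1.68 for the GTPases, 1.41 for the type I effectors and 1.27 for the regulators, against 1.01 for all genes tested. The largest ratios were those of Rsad2 (2.44), Gbp3 (2.41), Ifi47 (2.14), Rtp4 (2.001) and Irf7 (1.97). Both GTPases and type I effectors were therefore among the 14, 4 of 6 and 9 of 20. Macrophage and myeloid markers showed no such step, with 0 of 11 tested past 1.5-fold, but 4 of 6 tested epithelial markers were past it. The part of that difference in tumor content was not tested.

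In the comparison of the p62-EGFP with the EGFP tumors, 30 of 31 tested genes had a lower mean log2 value with p62-EGFP, and the median difference was -0.94 on that scale, against 0.01 for all genes tested. By class the medians were -1.10 for the regulators, -0.90 for the type I effectors and -1.73 for the GTPases. No gene passed limma's test (lmFit and eBayes, Benjamini-Hochberg adjustment over 13576 probe sets, adjusted p from 0.189 to 0.991), where 0.0884% of all probe sets did. At an unadjusted limma p below 0.05, 6 of 31 were lower and 0 higher, where 6.3% of genes tested were lower. Neither p62-EGFP tumor reached the lower EGFP tumor for 15 of 31 (22.1% of all genes tested) and both exceeded the higher EGFP tumor for 0 (26.4% of all genes tested). The 15 were 4 of 5 regulators, 10 of 20 type I effectors and 1 of 6 GTPases. They include Dhx58 and Mx1, which the filter kept only through EGFP tumor 2, and this favors a count of this kind. The GTPases had the largest median difference, while their 1 of 6 without overlap was near the share of all genes tested. Their EGFP means rested mostly on 1 tumor.

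The 6 genes below an unadjusted p of 0.05 were Usp18, Irf9, Stat2, Eif2ak2, Ifit1 and Iigp1. Usp18 had a log2 difference of -1.56 (SE 0.30, limma adjusted p = 0.189), with mean signals of 435 ± 154 (SD, n = 2) with EGFP and 134 ± 31.8 (SD, n = 2) with p62-EGFP. Irf9 had one of -0.77 (SE 0.20, limma adjusted p = 0.235), Eif2ak2 one of -0.61 (SE 0.21, limma adjusted p = 0.309) and Stat2 one of -0.84 (SE 0.30, limma adjusted p = 0.314). For Iigp1 it was -2.60, the largest of the list, with the widest error of the 6 (SE 1.01, limma adjusted p = 0.340), and for Ifit1 -1.44 (SE 0.56, limma adjusted p = 0.337). Gbp2 had the next largest difference, -1.86, with an SE of 1.27 (limma adjusted p = 0.530). An exact test of a single value with 2 tumors a group cannot go below p = 0.333.

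Most of these values depended on which EGFP tumor served as the control. Without EGFP tumor 2 the median over 29 tested genes was -0.22, with -0.59 for the regulators, -0.22 for the type I effectors and -0.07 for the GTPases, and 21 of 29 genes were lower in the p62-EGFP tumors. Irf1, Rsad2, Rtp4, Trim25, Gbp2, Irgm1 and Ifi47 then had a higher mean log2 value in the p62-EGFP tumors, as Bst2 did. Usp18 (log2 difference -1.21) and Iigp1 (-1.003) passed limma's test in that fit, where 4.38% of all probe sets were lower. Without EGFP tumor 1 the median was -1.61, with -1.42 for the type I effectors and -3.37 for the GTPases, and 28 of 31 passed as lower, where 9.74% of all probe sets did. Both fits assume that the lone EGFP tumor varies like the p62-EGFP pair. Each of them compares that pair with 1 EGFP tumor.

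**Figure D3:**
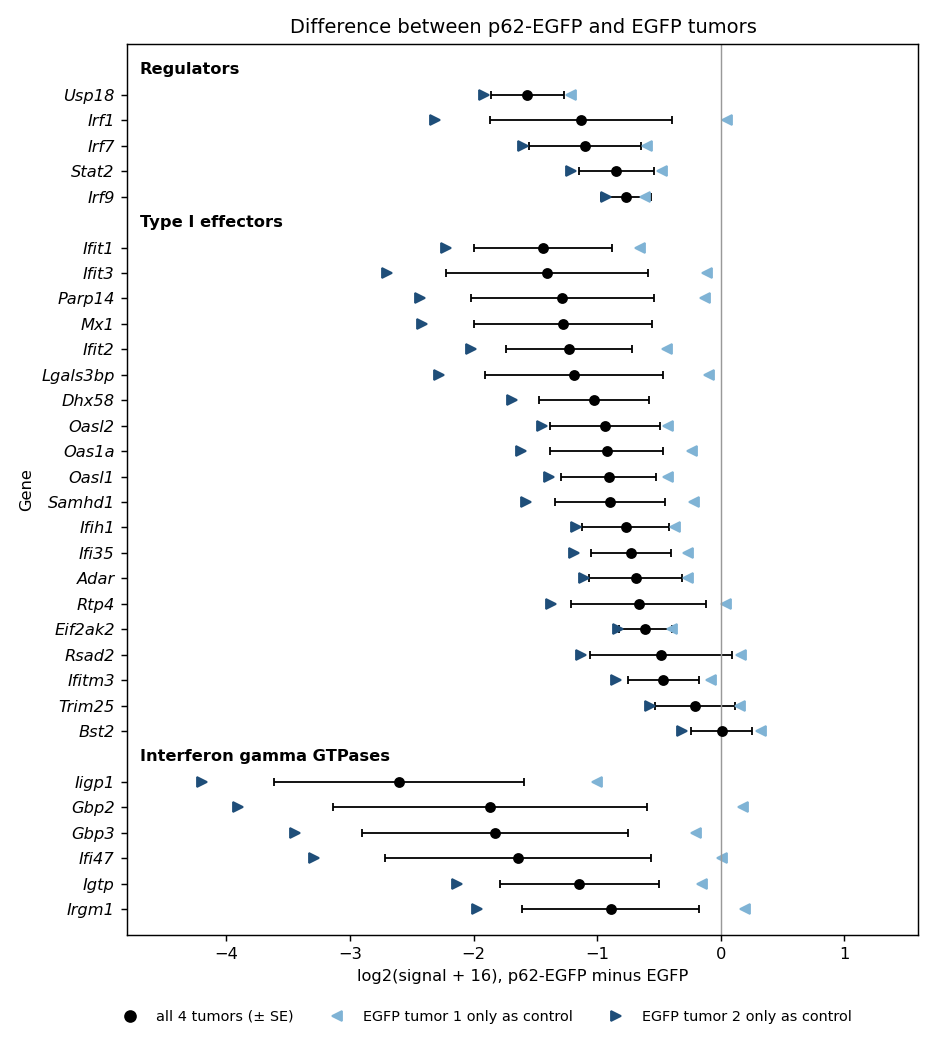
Black points are log2 differences of p62-EGFP from EGFP tumors with SE bars (2 tumors a group); triangles give the difference with only EGFP tumor 1 (pointing left, pale) or only EGFP tumor 2 (pointing right, dark) as control. With EGFP tumor 1 alone the GTPases other than Iigp1 lie near 0, between -0.20 and 0.19, while Usp18 stays at -1.21.

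Of the tested genes, 8 lie on chromosome 11, whose 697 tested genes had a median log2 difference of 0.30. They were Irf1, Ifi35, Dhx58, Trim25, Lgals3bp, Igtp, Irgm1 and Ifi47, with a median of -1.08 against -0.92 for the 23 on other chromosomes. With chromosome medians subtracted the median over all 31 was -1.16.

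The interferon genes themselves were mostly dim. Of 25 listed ligand and inducer genes, 14 were measured and 1, Ifnz, was tested. Ifnz, a gene of the type I interferon family, read 103 and 42.8 in the EGFP tumors against 65.4 and 117 in the p62-EGFP tumors, and was lowest in EGFP tumor 2. Ifng, which encodes interferon gamma, read 0.4 and 112 in EGFP tumors 1 and 2, against 0.2 and 3.1 in the p62-EGFP tumors. It was highest in EGFP tumor 2, but its mean was too low for it to be tested. Ifnb1, which encodes interferon beta, read between 6.4 and 9.8 in all tumors, and the measured interferon alpha genes stayed at or below 7.9. MAS5 detection calls were not used here, so signals of this size cannot be told from background. Il18, a cytokine that induces interferon gamma, read 20.3 and 75.7 against 25.0 and 17.7, and Il15, which sustains NK cells, 11.7 and 57.2 against 21.4 and 19.3.

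Receptor and JAK-STAT genes were measured for 15 of 17 and tested for 14. None passed limma's test, 3 were lower at an unadjusted p below 0.05 (Socs3, Ifngr1 and Jak1; 6.3% of all genes tested), and 6 of 14 had both p62-EGFP tumors below both EGFP tumors (22.1% of all genes tested). Their median log2 difference was -0.49. Ifngr1, the ligand-binding chain of the interferon gamma receptor, read 174.5 and 164 in the EGFP tumors against 75.3 and 96.0 in the p62-EGFP tumors (log2 difference -0.87, SE 0.18, limma adjusted p = 0.205). Unlike the GTPases, it did not differ in this way between the EGFP tumors. Its partner Ifngr2 read 60.4 and 92.1 against 78.9 and 58.3, with overlap. Ifnar1 read 179 and 234 against 231 and 207, and Ifnar2 136 and 309 against 169 and 116, so the chains of the type I receptor overlapped too. Jak1, which serves both receptors, read 480 and 701 against 351 and 385 (limma adjusted p = 0.297). Socs3, a feedback inhibitor of JAK-STAT signalling, read 205 and 291 against 95.3 and 114 (limma adjusted p = 0.199), and Socs1, the inhibitor that interferon gamma induces, 15.8 and 53.3 against 10.7 and 7.8.

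Genes that sense nucleic acids upstream of interferon were measured for 15 of 21 and tested for 11. None passed limma's test, 2 were lower at an unadjusted p below 0.05 (Tlr3 and Tbk1), against 6.3% of all genes tested. In 7 of 11 the p62-EGFP pair lay below the EGFP pair and in 1 above it, against 22.1% and 26.4%, and the median was -0.49. Tlr3, a receptor for double-stranded RNA, read 59.4 and 171 against 33.6 and 30.5. Tbk1, the kinase that activates IRF3, read 443 and 330 against 265 and 270. Zbp1, a sensor of Z-form nucleic acids that interferon induces, read 43.3 and 438 against 26.5 and 29.8. Tlr3 and Zbp1 were highest in EGFP tumor 2, Tbk1 in EGFP tumor 1.

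In a longer list of 62 other interferon-stimulated genes, 45 were tested and 42 of them were highest in EGFP tumor 2, against 24.6% of all genes tested. At least 2-fold above each other tumor there stood 27, against 3.48%, but 7 of the 45 passed the filter only through that tumor and all 7 are among the 27. None passed limma's test and 16 were lower at an unadjusted p below 0.05, against 6.3%. The p62-EGFP pair lay below the EGFP pair for 26 and above it for 1, against 22.1% and 26.4%, and the median was -0.97. Relative to EGFP tumor 1, p62-EGFP tumor 2 had a median of -0.09 over this list and 0.05 over the 31 genes described above. The chemokine genes Cxcl9 and Cxcl10 belong to it, and Cxcl9, a target of interferon gamma, read 26.7 and 1716 against 62.1 and 49.1. The 4 with the smallest p were Tap1, Psmb9, B2m and Psmb8, all of antigen presentation. Psmb8 read 660 and 1342 against 244 and 316 (limma adjusted p = 0.205).

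Markers of macrophages, NK cells and T cells were highest in EGFP tumor 2. Of 11 tested macrophage and myeloid markers 10 stood at least 2-fold above each other tumor in EGFP tumor 2, against 3.48% of all genes tested. The signal summed over all 12 was 1016 and 8841 in the EGFP tumors against 1793 and 1939 in the p62-EGFP tumors. Ptprc, the leukocyte phosphatase CD45, read 60.8 and 1264 against 95.9 and 115. NK and T cell markers were measured for 11 of 12 and tested for 5. These 5 passed the filter only through EGFP tumor 2, so their height there was fixed by the filter. Over all 11 the summed signals were 92.4 and 3473 against 87.2 and 102. Klrk1, an activating receptor of NK cells, read 21.2 and 524 against 17.4 and 10.0, and in the 3 other tumors most of these markers were below 20. Markers of B cells and plasmacytoid dendritic cells were measured for 6 of 8 and tested for 1, Cox6a2, which was highest in p62-EGFP tumor 1. Their summed signals were 38.3 and 182 against 110 and 55.2. The signal summed over the 8 epithelial markers was lowest in EGFP tumor 2, at 1869 and 734 against 1631 and 2417, whereas Krt19 among them read 93.6 and 156 against 333 and 341. Their part in the interferon gene values was not tested, and in whole tumors more cells of a type and more RNA per cell cannot be told apart.

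Relative to EGFP tumor 1, macrophage and myeloid markers had a median log2 difference of 3.13 in EGFP tumor 2. The GTPases had 3.22 in that tumor, the type I effectors 1.31 and the regulators 0.74. In p62-EGFP tumors 1 and 2 the macrophage and myeloid markers had medians of 0.64 and 0.70. The regulators had -0.75 and -0.30 there, with Irf1 apart at 0.01 and 0.09, and the GTPases -0.48 and 0.44. For 5 of 6 tested endothelial markers both p62-EGFP tumors were below the EGFP pair (22.1% of all genes tested), and Tek was the exception (log2 difference 0.08). The same order held for 15 of the 31 tested genes of the list: 4 of 5 regulators, 10 of 20 type I effectors and 1 of 6 GTPases. Of these 6 markers, 2 (Cldn5 and Tek) would not have reached the filter level without EGFP tumor 2. Cldn5 read 70.8 and 68.8 in EGFP tumors 1 and 2 against 11.8 and 22.5 in the p62-EGFP tumors. It therefore passed through its level in both EGFP tumors, which favors a count of this kind. Tek, which is not among the 5, read 25.1 and 39.2 against 32.2 and 36.4. None of the 6 passed limma's test (smallest adjusted p = 0.184), and none stood 2-fold above the other tumors in EGFP tumor 2. The signal summed over 8 was 412 and 533 against 202 and 257. Cdh5, an endothelial cadherin, read 60.2 and 56.7 against 22.0 and 25.6. The part of endothelial cells in the lower interferon gene values was not tested.

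**Figure D4:**
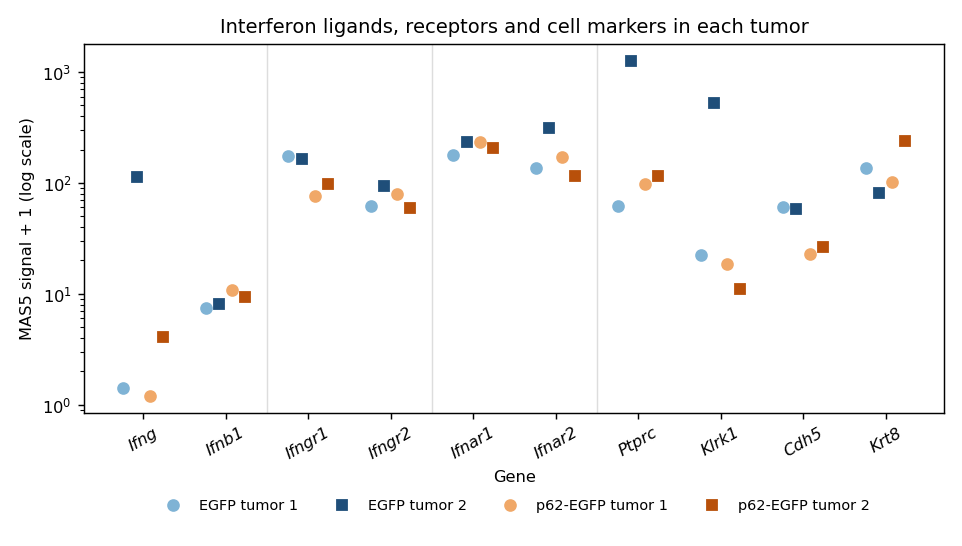
MAS5 signal + 1 on a log scale for interferon genes, receptor chains and cell markers, with 1 point per tumor and EGFP in blue and p62-EGFP in orange. Ifng, Ptprc and Klrk1 are high in EGFP tumor 2 alone, whereas Ifngr1 and Cdh5 are lower with p62-EGFP than with EGFP in every pairing.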

How the data were processed

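Each of the 4 tumors was measured on its own Affymetrix Mouse Genome 430A 2.0 array, per the labels' protocols. What was deposited is 1 signal intensity per probe set, for which the submitters' processing notes name MAS5; version, settings and genome build are not given in the sources used here. After trimming 2% at each end, the mean was 150.04 on every array, so the values were used as deposited. The 64 control probe sets were left out. Of the other 22626 probe sets, 20380 had 1 gene symbol in the platform annotation, 691 several and 1555 none. The identifiers of 20351 matched the RefSeq gene table of GRCm38.p6, and 0 symbols changed.

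Signals were taken as log2(signal + 16), filtered at the 40th percentile of the mean and compared by limma 3.58.1 (lmFit, then eBayes with an intensity trend; two-sided), run in R 4.3.3. P-values were adjusted by Benjamini-Hochberg and called at 0.05. The script was tested on simulated data. Python 3.11.15 with pandas 2.3.3, numpy 2.4.6 and matplotlib 3.10.9 gave the summaries and figures. Limma took the place of Genes@Work, which the series' design text names. The number of arrays limits the precision.

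The genes of the list, the 9 other lists and the tests were chosen with earlier results of these data known. Every measured gene of the list could be named, and of each other list the 4 with the smallest p, ligand and receptor genes, and 1 defining marker per cell type (Ptprc, Klrk1, Cdh5, Krt8). Others (Il15, Il18, Socs1, Cxcl9, Cxcl10, Krt7, Cldn7, Tek, and Sqstm1, Atg5 and Bcl2 as checks of the labels) were named after their values were seen. Alternatives covered array scaling, pseudocounts of 1 and 64, the filter, a replicate block, averaged probe sets, chromosome medians and leaving out each tumor.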

Additional observations from a re-analysis of the deposited data

How the results depend on the processing

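In 9 settings that kept all 4 tumors, 0 genes of the list passed limma's test and all 275 single-gene values kept their direction; the smallest adjusted p was 0.0591, for Usp18. The median over the list ran from -1.16 to -0.81, that of the type I effectors from -0.98 to -0.72 and that of the GTPases from -1.88 to -1.498. The 12 probe sets called on the whole array became 6 with no filter, 7 with the filter at the 60th percentile, 1 with averaged probe sets and 37 with the replicate block. Same-numbered tumors deviated together with r = 0.0823 across probe sets, and nothing in the labels pairs them. Leaving out 1 tumor gave 0 to 2835 called probe sets and 0 to 28 called genes of the list; without either p62-EGFP tumor 0 probe sets were called. Those fits turned the direction of 8 genes, whose values ranged from -2.31 to 0.052 for Irf1, -1.13 to 0.16 for Rsad2, -0.31 to 0.33 for Bst2, -1.37 to 0.041 for Rtp4, -0.57 to 0.16 for Trim25, -3.91 to 0.18 for Gbp2, -1.97 to 0.19 for Irgm1 and -3.29 to 0.011 for Ifi47. Rsad2 and Trim25 also turned without p62-EGFP tumor 1, and Bst2 turned without EGFP tumor 1 and without p62-EGFP tumor 2; the cause was not tested. The difference between GTPase and type I medians in EGFP tumor 2 (1.91) was 1.94 and 1.85 with pseudocounts of 1 and 64, 2.23 with averaged probe sets and 2.06 without Dhx58 and Mx1, settings chosen after seeing the data. Few arrays and the lack of detection calls limit what can be said of dim genes such as Mx2 and Ifng.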

Other observations

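Isg15 and Tgtp1 were covered only by shared probe sets. The one annotated to Isg15, a ubiquitin-like protein, and Gm9706 read 276 and 628.5 in the EGFP tumors against 155 and 381 in the p62-EGFP tumors, and EGFP tumor 2 was 2.21-fold above EGFP tumor 1. The one annotated to Tgtp2 and Tgtp1, immunity-related GTPases, read 373 and 2193 against 132 and 515, with a ratio of 5.68. Neither passed limma's test (adjusted p = 0.548 and 0.453).

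Of the 7 measured genes with at least 2 tested probe sets, 6 had the same sign of the p62-EGFP difference on all of them. The exception was Samhd1, whose 3 tested probe sets gave log2 differences of -0.90, -0.78 and 0.16; the last read 68.6 and 65.7 in the EGFP tumors against 66.9 and 87.5 in the p62-EGFP tumors and was the only one of the 3 not highest in EGFP tumor 2. The second probe set of Gbp2 read 55.6 and 1389 against 60.9 and 78.7, and that of Iigp1 129 and 1414 against 39.1 and 79.8, so the separation of EGFP tumor 2 was seen on both probe sets of each.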
